A study of Caenorhabditis elegans with 12 samples.

Results

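The microRNA genes of C. elegans were examined in 12 total RNA sequencing libraries of whole animals collected at the L4 stage, the last larval stage. Genes annotated as miRNA in the WBcel235 genome (the build of all coordinates below) were kept where their raw counts summed to 20 or more over the 12 libraries. Of 261 such genes in the count tables, 56 met this rule, out of 46904 genes in all. The 56 genes were thus chosen by the same raw counts that are described here, and being detected is not a result.

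The libraries form 4 groups of 3 biological replicates. They come from miR-85(n4117) animals and from WT (Bristol N2) animals kept for 44 hrs at 20°C and then exposed to heat shock for 3 hrs at 35°C, and from miR-85(n4117) and WT animals kept for 47 hrs at 20°C. The n4117 allele deletes mir-85 and disrupts part of F49E12.8, the gene on the opposite strand. Each library holds many animals and all their tissues, so fewer cells of a type and less RNA per cell cannot be told apart.

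MicroRNAs are made from long primary transcripts (pri-miRNAs) or from the introns of host genes. In the nucleus the Drosha enzyme (DRSH-1 with PASH-1) cuts out a hairpin, and in the cytoplasm Dicer (DCR-1) cuts the hairpin into the mature miRNA, which Argonaute proteins such as ALG-1, ALG-2 and ALG-5 carry to target mRNAs. Total RNA libraries of this kind lose RNA as short as a mature miRNA, and the counts are of 75-base reads on the annotated hairpin genes, which are 57 to 163 bp long (median 98 bp). The counts therefore follow primary transcripts and other longer RNA across the hairpin, and mature miRNAs were not measured. In C. elegans, miRNAs time larval development (lin-4 and the let-7 family), are needed redundantly in the embryo (the miR-35 and miR-51 families) and affect lifespan and stress resistance (mir-71, mir-239 and others).

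All 22 markers of stage and tissue, for moulting, sperm, adult yolk, muscle, intestine, neurons and hypodermis, had counts in every library, the lowest being 19. The 56 genes held 17646 counts over the 12 libraries, with a median of 50.5 per gene, and the 6 most counted held 1091 to 4641 each. WT replicate 3 at 20°C had 65.5% of its counts on ribosomal RNA genes and the fewest counts on protein-coding genes (9505142, against 18080627 to 29652439 elsewhere), so its zeros carry the least information. WT replicates 2 and 3 at both temperatures were sequenced in lane 8 and all other libraries in lane 3. The heat shock gene hsp-16.2 had 42909 to 58240 counts in the 6 libraries at 35°C. At 20°C it had 75, 537 and 580 in miR-85(n4117), against 39, 14 and 4 in WT. The adult collagen gene col-19 averaged 25963 normalized counts in miR-85(n4117) at 35°C, against 3581 at 20°C, and 53113 in WT at 35°C, against 6794 at 20°C (log2 fold changes 2.86 and 2.97, adjusted p = 0.0849 and 0.0603 in edgeR). The yolk genes vit-2 to vit-6 of the adult had log2 fold changes of 1.35 to 3.43 in miR-85(n4117) and 1.12 to 3.36 in WT without passing the test described below, as did the moulting genes mlt-10 (-1.22 and -1.71) and qua-1 (-0.75 and -1.53). Of the 22 markers the cuticle collagen genes col-10 (1.35 and 1.10) and col-12 (1.33 and 1.20) rose in both strains, and the gut esterase gene ges-1 fell in WT (-1.01). The sperm genes spe-11, msp-10, msp-33 and msp-142 had values of -0.12 to 0.50 in miR-85(n4117) and -0.30 to 0.61 in WT, without passing. Mean levels of col-19, the yolk genes and the moulting genes thus differed between the temperatures, but without passing the test. The part of stage in the results below was not tested.

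The 56 microRNA genes together held many more counts after heat shock. A normalized count is a raw count divided by the library's TMM-scaled size relative to the mean library. The summed normalized counts were 2993, 3514 and 2412 in miR-85(n4117) libraries at 35°C, against 187, 134 and 139 at 20°C. In WT they were 3545, 3211 and 2728 at 35°C, against 254, 173 and 242 at 20°C. The ratio of the means was 19.4 in miR-85(n4117) and 14.2 in WT, and the temperatures did not overlap in either strain. The rule favours a higher sum at 35°C, since 30 of the 56 genes reached 20 counts only in those libraries and 2 only in those at 20°C. Most of the sum at 35°C came from the 6 genes with most counts (mir-51, mir-52, mir-239.1, mir-80, mir-61 and mir-250), which held 76.8% of the members' counts at 35°C and 15.5% at 20°C. Without these 6 the ratios were 5.35 and 3.82. The other 205 microRNA genes, each with fewer than 20 counts, summed to 86.8 ± 13.1 normalized counts at 35°C against 29.0 ± 2.94 at 20°C in miR-85(n4117), and to 81.9 ± 31.4 against 35.2 ± 20.1 in WT (SD, n = 3 each). Over all 261 microRNA genes, with no minimum count, the ratio of the means was 16.8 in miR-85(n4117) and 12.6 in WT.

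**Figure D1:**
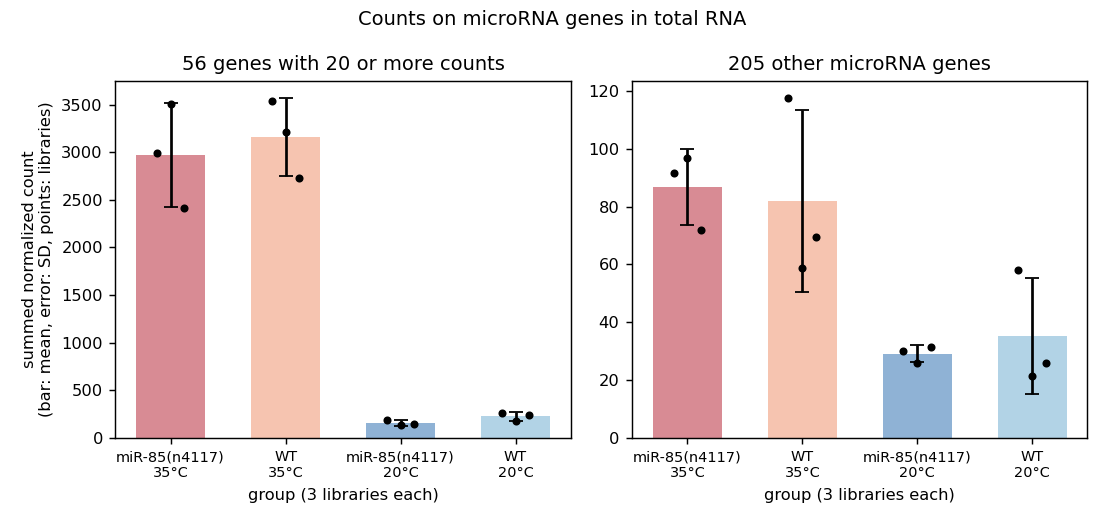
Summed normalized counts of the 56 microRNA genes with 20 or more counts and of the 205 others, by group (bars, means; error bars, SD; points, the 3 libraries of each group). Every library at 35°C lies above every library at 20°C for the 56 genes, at 2412 to 3545 against 134 to 254.

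The order of the genes by level changed with temperature. Levels per kb of annotated gene were highest at 35°C for mir-51 (8282 normalized counts per kb), mir-52 (6145), mir-239.1 (2602), mir-80 (2359), mir-61 (2276), mir-250 (2058), mir-239.2 (1584), mir-235 (904), mir-238 (769) and mir-77 (734), as means of 6 libraries. These 10 genes also have the highest means over all 12 libraries. At 20°C the order of the means was not the same in the strains, though no microRNA gene passed the test between strains at that temperature. The highest levels in miR-85(n4117) were those of mir-4929 (210 normalized counts per kb), mir-353 (145), mir-51 (121) and mir-241 (110), and in WT those of mir-51 (385), mir-353 (280.1), mir-241 (209) and mir-4929 (172), as means of 3 libraries. Of these mir-353, mir-4929 and mir-241 ranked 16th, 41st and 40th at 35°C over both strains. In the same ranking mir-52 was 36th and mir-250 48th at 20°C.

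The response to heat shock was tested with edgeR's quasi-likelihood test in a fit of all 12 libraries and 16585 genes of every class. To pass, a gene needed an adjusted p under 0.05 (Benjamini-Hochberg, over all genes tested) and a log2 fold change of 1 or more up or down. Of the 56 microRNA genes, 23 passed the count filter of this test. In miR-85(n4117) 18 rose and 1 fell, where 7.31% of all genes tested rose and 3.13% fell. In WT 17 rose and 2 fell, where 8.73% of all genes rose and 5.02% fell. All 17 genes that rose in WT also rose in miR-85(n4117). Only 4 of the 23 tested genes (mir-51, mir-241, mir-353 and mir-4929) had the counts at 20°C to pass the filter on those libraries alone. The other 19 did not. Most of these could enter only through their counts at 35°C, which favours a rise, so the share that rose says nothing about microRNA genes as a class. mir-64 is among the 19 but had 60 counts at 20°C against 48 at 35°C over both strains, and it did not pass in either strain.

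All 17 genes that rose in WT were higher at 35°C within lane 3 (1 library against 1) and within lane 8 (2 against 2). For each of these 17, every WT library at 35°C was above every WT library without heat shock. Neither lane could thus have shown the reverse, and nothing about lane is read from this comparison. Genes of other noncoding classes also rose, where 7.31% of all genes rose in miR-85(n4117) and 8.73% in WT. In miR-85(n4117) 43 of 43 tested tRNA genes, 10 of 13 piRNA genes and 174 of 293 genes of class ncRNA rose. Of 156 snoRNA, 36 snRNA and 6 rRNA genes, 67, 12 and 0 rose. In WT the numbers were 41, 10, 169, 56, 11 and 0 in this order. Such genes can also enter the test through their counts at 35°C, so nothing is read from these numbers. The part that RNA shared with such classes has in the microRNA counts was not tested. Over the 16585 genes the median log2 fold change was 0.05 in miR-85(n4117) and 0.04 in WT.

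**Figure D2:**
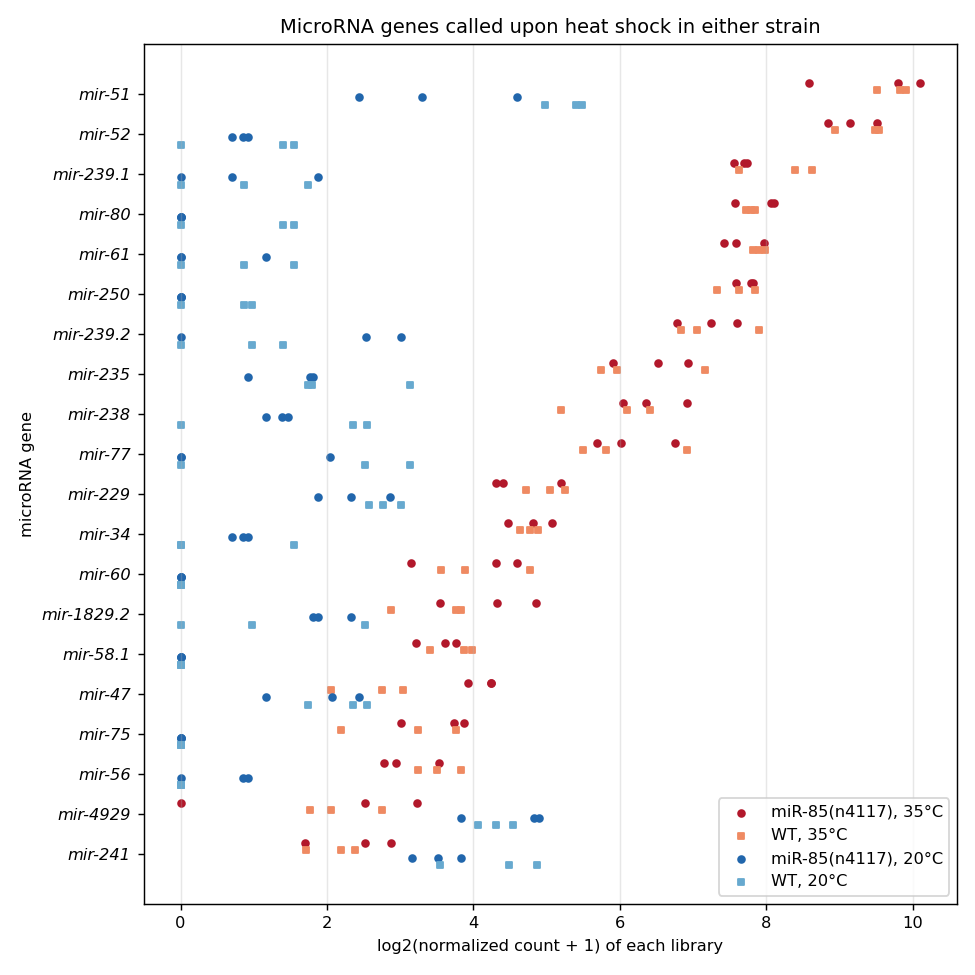
Level of each of the 20 microRNA genes that passed the test upon heat shock in either strain, as log2(normalized count + 1) per library (red circles, miR-85(n4117) at 35°C; orange squares, WT at 35°C; dark blue circles, miR-85(n4117) at 20°C; light blue squares, WT at 20°C). The libraries at 35°C stand to the right of those at 20°C for 17 genes and to the left for mir-4929 and mir-241, while mir-47 separates by temperature in miR-85(n4117) but not in WT.

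The miR-51 family (mir-51 to mir-56), whose members share a seed and act redundantly in embryos, included both microRNA genes with the highest counts. mir-51 (WBGene00003279, chromosome IV, 11026013 to 11026112, minus strand, outside other genes) had 795, 1045 and 324 counts in miR-85(n4117) libraries at 35°C, against 37, 5 and 11 at 20°C. In WT it had 843, 611 and 862 counts at 35°C, against 45, 50 and 13 at 20°C. The groups were far apart, and the log2 fold change was 5.95 ± 0.55 in miR-85(n4117) (SE; adjusted p = 5.9e-05) and 4.46 ± 0.51 in WT (adjusted p = 0.00023). Without miR-85(n4117) replicate 1 at 20°C, which held 37 of that group's counts, the value in miR-85(n4117) was 6.85. mir-51 was the only gene of the 6 largest that was also well counted at 20°C.

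mir-52 (WBGene00003280, chromosome IV, 14034008 to 14034107, plus strand) had few counts at 20°C. It had 410, 690 and 476 counts in miR-85(n4117) libraries at 35°C, against 1, 1 and 1 at 20°C, and 623, 621 and 464 in WT at 35°C, against 2, 2 and 0 at 20°C. The ratio in miR-85(n4117) was 775 (95% exact counting interval 265 to 3760; adjusted p = 2.1e-07 in edgeR), and the log2 fold change in WT was 8.66 ± 0.38 (adjusted p = 2.3e-07). Such intervals, given where a group held 1 to 3 counts, cover counting error only.

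The other members of the family lie in a cluster on chromosome X (mir-54, mir-55 and mir-56, 13144691 to 13145094, minus strand) and near mir-51 (mir-53). mir-56 had 6, 10 and 5 counts in miR-85(n4117) at 35°C, against 0, 1 and 1 at 20°C, and 9, 11 and 8 in WT at 35°C, against none at 20°C. It rose in both strains, by a ratio of 15.5 (3.78 to 136) and at least 2.56-fold, where a group without counts is set to a floor of 3 counts per library. mir-55 and mir-54 did not pass the count filter. DESeq2 and edgeR with no filter, which took in all 56 genes, called mir-55 in both strains and mir-54 in neither. mir-55 had 5, 13 and 6 counts against 0, 1 and 0 in miR-85(n4117), and 4, 8 and 13 against 1, 0 and 0 in WT, at 35°C against 20°C. mir-54 had 4, 10 and 3 against 1, 3 and 3, and 4, 6 and 7 against 1, 1 and 1. All 3 cluster genes were higher in every library at 35°C than in any library of the same strain at 20°C. mir-53 was higher at 35°C in every miR-85(n4117) library (10, 5 and 2 counts against 3, 0 and 0), while in WT its libraries overlapped (4, 1 and 2 against 2, 2 and 2). In the family 3 of 6 genes passed the filter and rose in both strains, mir-52 and mir-56 having entered through their counts at 35°C.

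The genes of the ageing and stress list are mir-71, mir-246, mir-239.1, mir-239.2, mir-238, mir-34, mir-83 and mir-80, and 5 of the 8 passed the count filter. These 5 rose in both strains, but all entered through their counts at 35°C and had to differ, so nothing is read from this number. mir-239.1 and mir-239.2 are divergent neighbours on chromosome X, at 11792445 to 11792542 on the plus strand and at 11791302 to 11791399 on the minus strand, outside other genes. Loss of this pair has been linked to longer life and stronger stress resistance.

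mir-239.1 had 185, 202 and 159 counts in miR-85(n4117) at 35°C, against 1, 3 and 0 at 20°C, and 344, 279 and 187 in WT at 35°C, against 0, 1 and 1 at 20°C. The log2 fold change in miR-85(n4117) was 7.47 ± 0.59 (adjusted p = 1.4e-05), and 8.73 without replicate 2 at 20°C, and the ratio in WT was 406 (112 to 3360; adjusted p = 1.4e-05). mir-239.2 had 172, 143 and 92 counts in miR-85(n4117) at 35°C, against 0, 8 and 6 at 20°C, and 107 to 198 in WT at 35°C, against 1, 2 and 0 at 20°C. Its log2 fold change in miR-85(n4117) was 5.30 ± 0.69 (adjusted p = 0.00052), and 4.63 and 6.02 without replicate 1 or 2 at 20°C, and its ratio in WT 140 (47.7 to 684; adjusted p = 0.00032). The 2 miR-85(n4117) libraries at 20°C with counts for mir-239.2 are those with 537 and 580 counts for hsp-16.2, and the part of that heat shock signal was not tested.

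mir-80 and mir-238 lie 1961 bp apart on the minus strand of chromosome III. mir-80, of the bantam (miR-58) family, was the most abundant of that family's genes here, with 238, 261 and 160 counts in miR-85(n4117) at 35°C, against none at 20°C, and 192, 191 and 200 in WT at 35°C, against 2, 2 and 0 at 20°C. It was at least 105-fold higher at 35°C in miR-85(n4117) (adjusted p = 1.8e-06), and its log2 fold change in WT was 7.10 ± 0.38 (adjusted p = 5.8e-06). mir-238 had 107, 77 and 55 counts against 2, 2 and 2 in miR-85(n4117), and 59, 70 and 34 against 5, 5 and 0 in WT. Its log2 fold changes were 5.75 ± 0.56 (adjusted p = 7.1e-05) and 4.07 ± 0.53 (adjusted p = 0.000499). mir-90, the next microRNA gene on this strand and inside an intron of K01F9.2, was low at both temperatures, with 1, 8 and 4 counts at 35°C against 1, 1 and 2 at 20°C in miR-85(n4117), and 3, 2 and 4 against 2, 3 and 1 in WT.

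mir-34, conserved to mammals where it is linked to p53 and DNA damage, lies on chromosome X (2969752 to 2969848, minus strand). It had 19, 31 and 23 counts in miR-85(n4117) at 35°C, against 1, 1 and 1 at 20°C, and 25, 20 and 25 in WT at 35°C, against 2, 0 and 0 at 20°C. The ratios were 35.9 (11.8 to 178) and 35.1 (9.36 to 296), with adjusted p of 0.00018 and 0.00035. WT replicate 1 held both of the counts in WT at 20°C, and without it that group had none and the fitted log2 fold change in WT was 7.72, against 4.92 with it.

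mir-71 and mir-246, both linked to longer life in worms, did not pass the count filter. DESeq2 and edgeR with no filter called mir-246 in miR-85(n4117) and not in WT, and mir-71 in neither strain. mir-246 had 3, 6 and 13 counts against 1, 0 and 0 in miR-85(n4117), and 8, 8 and 6 against 2, 0 and 1 in WT, at 35°C against 20°C. Every library at 35°C was above those at 20°C of its strain, and the exact permutation p was 0.1 in each strain (two-sided, 3 libraries against 3), the smallest that this design allows. mir-71, in an intron of ppfr-1, had 7, 8 and 5 counts against 13, 6 and 5, and 7, 11 and 8 against 9, 4 and 0. Its libraries overlapped in both strains, and the exact permutation p was 0.3 in each. mir-83 had 1 count over the 12 libraries together.

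The neighbouring genes mir-61 and mir-250 lie 45 bp apart on the minus strand of chromosome V (11769917 to 11770156). mir-61 acts in the precursor cells of the vulva, where it lowers VAV-1. mir-61 had 152, 182 and 212 counts in miR-85(n4117) at 35°C, against 2, 0 and 0 at 20°C, and 220, 188 and 226 in WT at 35°C, against 2, 1 and 0 at 20°C. The ratios were 403 (111 to 3332) and 212 (72.2 to 1031), with adjusted p of 2.6e-06 and 4.9e-06. Both counts of mir-61 in miR-85(n4117) at 20°C came from replicate 1, and without it that group had no count and the fitted log2 fold change was 10.59, against 8.36 with it. mir-250 had 171, 213 and 187 counts against none in miR-85(n4117), and 201, 165 and 152 against 1, 1 and 0 in WT. It was at least 91.6-fold higher in miR-85(n4117) (adjusted p = 1.2e-06), with a ratio of 260 in WT (71.5 to 2151; adjusted p = 3.2e-06). Both genes of the pair had similar counts at 35°C, mir-61 taking 46.1% to 53.1% of their sum in miR-85(n4117) libraries and 52.3% to 59.8% in WT libraries.

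mir-235, which keeps blast cells quiescent in starved larvae, lies on chromosome I (6162291 to 6162387, minus strand). It had 81, 56 and 103 counts against 4, 1 and 3 in miR-85(n4117), and 124, 44 and 58 against 8, 3 and 1 in WT. The log2 fold changes were 5.41 ± 0.61 (adjusted p = 0.00017) and 4.22 ± 0.58 (adjusted p = 0.00067), the WT value being 5.05 without replicate 1 at 20°C and 3.62 without replicate 1 at 35°C. mir-77 (chromosome II, 12519268 to 12519367, plus strand) had 57, 102 and 43 counts against 5, 0 and 0 in miR-85(n4117), and 105, 46 and 42 against 8, 0 and 2 in WT. The log2 fold changes were 5.79 ± 0.99 (adjusted p = 0.00302) and 4.19 ± 0.92 (adjusted p = 0.0094). The 5 counts of mir-77 in miR-85(n4117) at 20°C all came from replicate 1, without which the group had no count and the fitted value was 9.13. In WT it was 5.63 and 3.43 without replicate 1 or 2 at 20°C.

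3 tested genes had no count in any of the 6 libraries at 20°C. They entered the test only through their counts at 35°C, so nothing is read from their adjusted p-values below. mir-60, a miRNA of the intestine (chromosome II), had 7, 22 and 16 counts in miR-85(n4117) and 12, 9 and 25 in WT at 35°C, at least 7.18-fold and 4.08-fold higher than at 20°C (adjusted p = 0.0048 and 0.0064). mir-58.1, of the bantam family (chromosome IV, in an intron of Y67D8A.2), had 10, 12 and 7 counts in miR-85(n4117) and 13, 8 and 13 in WT at 35°C, at least 4.62-fold and 3.06-fold higher (adjusted p = 0.0018 and 0.0022). mir-75 (chromosome X) had 11, 13 and 6 counts in miR-85(n4117) and 11, 3 and 8 in WT, at least 4.76-fold and 1.97-fold higher (adjusted p = 0.0058 and 0.012). With the replicate number as a block, the WT calls of mir-58.1 (adjusted p = 0.0525) and mir-75 (adjusted p = 0.0731) were lost. The annotated mir-58.1 shares bases with exons of Y67D8A.6 on the same strand, where reads can be lost to the count. Of the bantam family 2 of 4 genes were tested, and mir-81 and mir-82 had fewer than 20 counts each.

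Among the heterochronic genes (lin-4, let-7, mir-48, mir-84, mir-241 and mir-237), which time the larval stages, only mir-241 passed the count filter, and it was lower after heat shock. With mir-48 and mir-84 it lowers HBL-1 at the change of the second to the third larval stage. mir-241 (chromosome V, 14366188 to 14366283, minus strand) had 2, 6 and 4 counts in miR-85(n4117) at 35°C, against 21, 9 and 13 at 20°C, and 2, 3 and 4 in WT at 35°C, against 22, 13 and 12 at 20°C. The temperatures did not overlap in either strain. It fell in WT with a log2 fold change of -2.47 ± 0.51 (adjusted p = 0.0066), and in miR-85(n4117) the value of -1.23 ± 0.49 did not pass (adjusted p = 0.1146). The interaction of strain and heat shock, which tests the difference of these values, was 1.23 ± 0.73 (unadjusted p = 0.12).

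mir-48, 1679 bp downstream of mir-241 on the same strand, did not follow it. It had 8, 5 and 8 counts against 6, 5 and 1 in miR-85(n4117), and 6, 3 and 2 against 2, 2 and 0 in WT, at 35°C against 20°C. After normalization every library at 35°C was above those at 20°C of its strain, the reverse of the order seen for mir-241. mir-241 made up 20.0% to 54.5% of the counts of the pair in miR-85(n4117) libraries at 35°C, against 64.3% to 92.9% at 20°C, and 25% to 66.7% in WT at 35°C, against 86.7% to 100% at 20°C. The shares were compared after the values had been seen. lin-4, the regulator of LIN-14, had 2, 0 and 1 counts against 3, 3 and 3 in miR-85(n4117), and 3, 1 and 3 against 3, 0 and 1 in WT, with overlap in each strain. let-7, whose annotated gene is 1732 bp long, had no count in any library, mir-84 had 3 in all and mir-237 had 8. The paper probed let-7 on a Northern blot as a control for the L4 stage. The absence of let-7 counts is therefore not read as absence of let-7, and its cause was not tested. A count of 0 allows up to 3 counts per library. Of the miR-35 family of the early embryo no gene of 8 reached 20 counts.

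mir-4929 (WBGene00219226, chromosome II, 13461755 to 13461864, minus strand, in an intron of E01G4.3) was the other gene that fell. It was singled out after its values had been seen. It had 0, 8 and 4 counts in miR-85(n4117) at 35°C, against 21, 31 and 36 at 20°C, and 5, 2 and 3 in WT at 35°C, against 23, 19 and 8 at 20°C. The log2 fold changes were -2.35 ± 0.66 (adjusted p = 0.0361) and -2.29 ± 0.70 (adjusted p = 0.0388), with -3.25 in miR-85(n4117) without replicate 2 at 35°C. The libraries did not overlap, but the call was lost in 6 of 12 fits that left out a library in miR-85(n4117) (adjusted p up to 0.111) and in 7 of 12 in WT (adjusted p up to 0.113). mir-353, in an intron of the ribosomal protein gene rpl-24.1, had 11, 11 and 16 counts against 32, 15 and 18 in miR-85(n4117), and 12, 25 and 15 against 15, 26 and 24 in WT, without passing the test in either strain (log2 fold change -0.17 and -0.55).

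Introns of genes on the same strand held 22 of the 56 microRNA genes, and 34 did not lie wholly within a gene of their strand. Of these 34, mir-8196.1 shares bases with an exon of linc-154 on the same strand. None lay in an exon of a host. A share of 39.3% had a host, against 32.7% of the other 205 microRNA genes. Among the 22 with a host, 6 were tested, and 3 rose and 1 fell in each strain. Among the 34 without, 17 were tested, and 15 rose in miR-85(n4117), while 14 rose and 1 fell in WT. Over all genes tested, 7.31% rose in miR-85(n4117) and 8.73% in WT. Of the 23 tested microRNA genes, 19 entered through their counts after heat shock and had to differ. Nothing about genes with and without a host is therefore read from these numbers. The 22 genes have 19 hosts, all of which were tested.

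Of the 19 host genes 1 rose in miR-85(n4117), where 7.31% of all genes rose and 3.13% fell, and 1 fell in WT, where these shares were 8.73% and 5.02%. slc-25A29, a mitochondrial carrier family gene that hosts mir-8210, had 203, 210 and 204 counts in miR-85(n4117) at 35°C, against 131, 126 and 132 at 20°C, and rose with a log2 fold change of 1.20 ± 0.18 (adjusted p = 0.00105). In WT its value was 0.48 (adjusted p = 0.0707). pmp-5, a peroxisomal membrane transporter family gene that hosts mir-70, had 1234, 231 and 313 counts in WT at 35°C, against 6302, 4336 and 542 at 20°C, and fell with a log2 fold change of -2.45 (adjusted p = 0.0304), or of -1.86 without WT replicate 1 at 20°C (adjusted p = 0.104) and -3.61 without WT replicate 1 at 35°C. In miR-85(n4117) its value was -2.24 (adjusted p = 0.0526), and its call was lost under 6 alternatives in WT and gained under 8 in miR-85(n4117).

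Of the microRNA genes that passed 4 have a host, and these hosts did not pass. The hairpins lie in introns, so host and microRNA counts come from different parts of a gene and are not like measures of its transcription. mir-229 (chromosome III, 2172452 to 2172566, plus strand) lies in an intron of gcn-1, whose yeast counterpart activates the GCN2 kinase. mir-229 had 18, 34 and 16 counts in miR-85(n4117) at 35°C, against 10, 3 and 5 at 20°C, and 28, 31 and 24 in WT at 35°C, against 6, 6 and 3 at 20°C. Its log2 fold changes were 2.46 ± 0.39 (adjusted p = 0.00178) and 2.43 ± 0.41 (adjusted p = 0.0022). For gcn-1 they were -0.05 and -0.07, with 6399, 8014 and 4988 counts against 13494, 8170 and 8210 in miR-85(n4117), and 6319, 6400 and 6996 against 10345, 9230 and 2405 in WT. The host Y67D8A.2 of mir-58.1 had values of 0.47 and 0.51, the host F20D1.3 of mir-1829.2 had 0.70 and 0.66, and the host E01G4.3 of mir-4929 had -0.12 and 0.51.

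Introns of gcn-1 also hold mir-64, mir-65 and mir-66, and these were looked at after the values of mir-229 had been seen. mir-64 (2172848 to 2172957) had 7, 7 and 7 counts against 8, 5 and 7 in miR-85(n4117), and 8, 13 and 6 against 19, 9 and 12 in WT, with log2 fold changes of 0.62 (adjusted p = 0.463) and -0.71 (adjusted p = 0.316). mir-229 made up 72.0%, 82.9% and 69.6% of the counts of the pair in miR-85(n4117) at 35°C, against 55.6%, 37.5% and 41.7% at 20°C, and 77.8%, 70.5% and 80.0% in WT at 35°C, against 24%, 40.0% and 20.0% at 20°C. The share was higher in every library at 35°C than in any at 20°C. mir-66 was not tested, with 4, 14 and 1 counts against 6, 0 and 2, and 6, 9 and 5 against 6, 3 and 0. mir-65 had 17 counts in all.

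**Figure D3:**
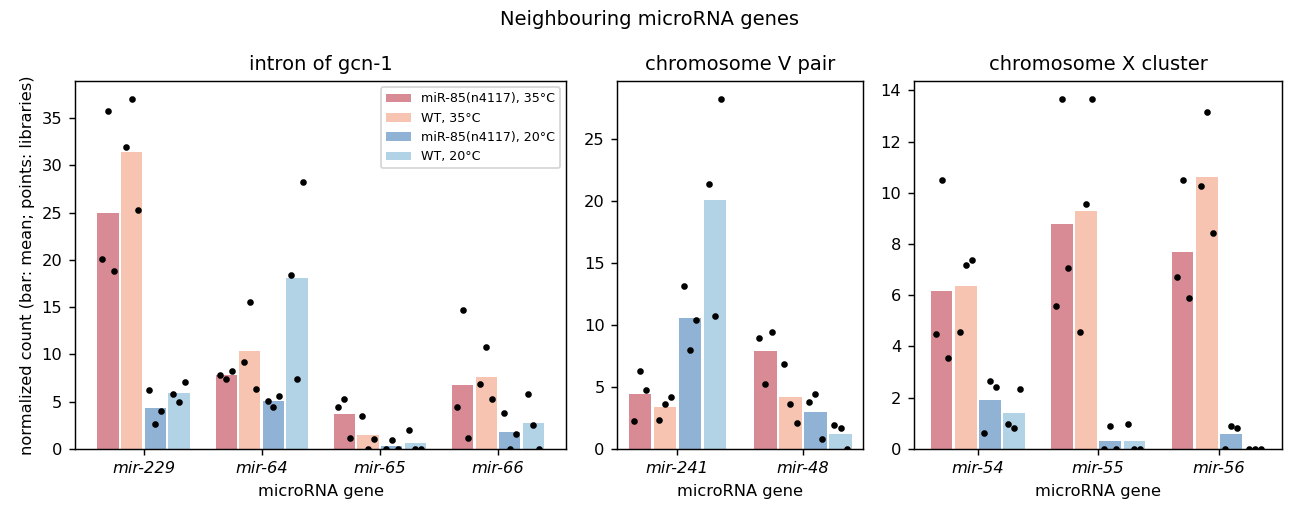
Normalized counts of microRNA genes that lie side by side: mir-229, mir-64, mir-65 and mir-66 within gcn-1, mir-241 and mir-48 on chromosome V, and mir-54, mir-55 and mir-56 on chromosome X (bars, group means; points, the 3 libraries of each group). mir-229 is higher at 35°C and mir-64 is not in WT, mir-241 and mir-48 have opposite orders, and the 3 genes on chromosome X share 1 order.

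Upstream of 37 of the 56 genes another gene of the same strand lies within 5 kb, and 21 of these upstream genes were tested. In each strain 8 of the 21 rose, and 1 fell in WT, where 7.31% of all genes rose in miR-85(n4117) and 8.73% in WT. Some of these upstream genes are themselves among the 56, so the numbers partly repeat calls given above. The microRNA genes mir-238, mir-61 and mir-229 are among the 8 that rose, and mir-241 is the 1 that fell. Nothing about neighbours is read from these numbers. Short noncoding RNA genes made up 13 of the 37 (classes ncRNA and snoRNA), of which 6 were tested and 5 rose in both strains. Of all genes of these classes tested, 59.4% of ncRNA genes and 42.9% of snoRNA genes rose in miR-85(n4117), and 57.7% and 35.9% in WT. Since 4 of the 5 had 0 to 3 counts in each library at 20°C and entered through their counts at 35°C, nothing is read from their number. These 5 lie next to mir-52, mir-239.1, mir-51, mir-239.2 and mir-77, and the reads do not show whether they are parts of the same transcript as the microRNA gene.

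Y37A1B.330, 4 bp upstream of mir-52, had 55, 82 and 69 counts in miR-85(n4117) at 35°C, against 1, 0 and 0 at 20°C, and 73, 76 and 65 in WT at 35°C, against 2, 1 and 0 at 20°C. The ratios were 304 (53.9 to 12054) and 71.5 (24.2 to 350), in the same direction as mir-52. C34E11.20, a snoRNA gene 161 bp upstream of mir-239.1, had 132, 112 and 98 counts against 0, 1 and 2 in miR-85(n4117), and 174, 207 and 159 against 2, 3 and 0 in WT, with a ratio of 168 (57.0 to 819) and a log2 fold change of 6.71 ± 0.50. Both noncoding genes and their microRNA genes were close to 0 at 20°C and well counted in every library at 35°C.

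The other 3 also rose. F36H1.17, 19 bp upstream of mir-51, had 13, 15 and 16 counts against 2, 0 and 2 in miR-85(n4117) (log2 fold change 3.88 ± 0.69), and 22, 8 and 20 against 1, 0 and 1 in WT (ratio 25.1, 6.59 to 213). C34E11.9, 211 bp upstream of mir-239.2, had 11, 14 and 11 counts against 3, 0 and 2 (3.30 ± 0.65), and 11, 17 and 19 against 0, 2 and 0 (ratio 23.6, 6.17 to 200). Both WT counts at 20°C came from replicate 2, and without it the fitted log2 fold change was 7.12, against 4.37 with it. T21B4.20, a snoRNA gene 51 bp upstream of mir-77, had 35, 53 and 31 counts against 21, 4 and 7 (2.50 ± 0.44), and 56, 49 and 38 against 11, 12 and 2 (2.58 ± 0.46). In each of the 5 pairs the log2 ratio of the microRNA gene was above that of its upstream gene in both strains, as plotted for microRNA genes and their neighbours. With few counts at 20°C and a pseudocount of 0.5, a gene with fewer counts at 35°C tends to a smaller ratio, so nothing is read from this order.

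**Figure D4:**
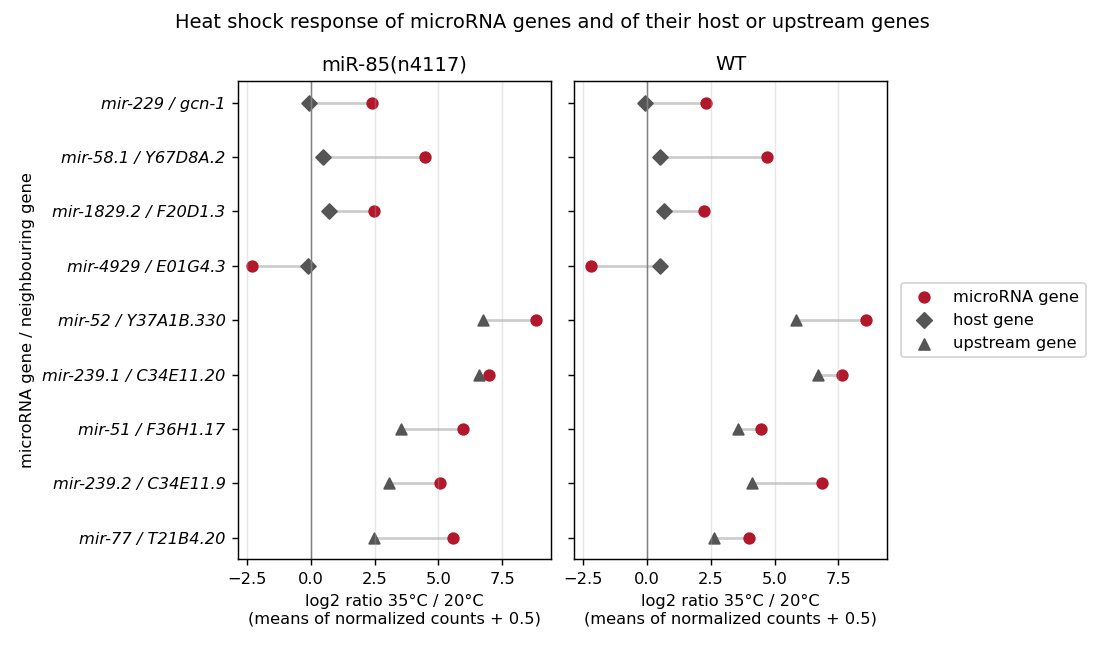
Log2 ratio of the mean normalized counts at 35°C and 20°C (each plus 0.5) for microRNA genes (red circles) and for the host gene (diamonds) or the noncoding gene upstream (triangles), in miR-85(n4117) and WT. The 4 host genes lie closer to 0 than their microRNA genes, and the 5 upstream noncoding genes lie on the same side as their microRNA genes.

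Between the strains no microRNA gene passed the test. At 35°C, 18 of the 56 were tested and 0 passed in either direction, where 0.00633% of 15803 genes were higher and 0.0127% lower in miR-85(n4117) (edgeR). At an unadjusted p under 0.05 there was 1 microRNA gene in edgeR, where 2.38% of all genes tested were under 0.05, and DESeq2 called 0 with 2 under 0.05. At 20°C only 4 were tested and 0 passed, where 0.013% of 15349 genes were higher and 0.0391% lower. There 1 microRNA gene was under an unadjusted 0.05 in edgeR, where 9.68% of all genes tested were, and 3 were in DESeq2. The 56 genes summed to 2973 ± 552 normalized counts in miR-85(n4117) and 3161 ± 411 in WT at 35°C, and to 153 ± 29.3 in miR-85(n4117) and 223 ± 43.8 in WT at 20°C (SD, n = 3 each).

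mir-85 itself (chromosome II, 8393553 to 8393658, plus strand) had no count in the 6 libraries labelled miR-85(n4117). In WT it had 9, 6 and 2 counts at 35°C, against 5, 5 and 0 at 20°C, below the count filter, and the ratio of 2.18 had an exact permutation p of 0.3 (two-sided). The strains did not overlap at 35°C (exact permutation p = 0.1, the smallest that 3 against 3 allows) and did at 20°C, where WT replicate 3 had none (exact permutation p = 0.4). F49E12.8, antisense to mir-85, had 11, 4 and 3 counts in miR-85(n4117) and 85, 92 and 85 in WT at 35°C, and 2, 0 and 2 in miR-85(n4117) against 78 to 220 in WT at 20°C. The difference passed the test at 20°C (log2 fold change -7.23 ± 0.44, adjusted p = 0.00432) and not at 35°C (-3.86, adjusted p = 0.349).

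mir-47 (chromosome X, 13921250 to 13921346, plus strand) was the tested gene with p under 0.05 between strains at 35°C. It had 16, 17 and 12 counts in miR-85(n4117) at 35°C, against 2, 5 and 4 at 20°C, and 5, 6 and 3 in WT at 35°C, against 5, 5 and 1 at 20°C. Every miR-85(n4117) library at 35°C was above every other library. It rose upon heat shock in miR-85(n4117) (log2 fold change 2.50 ± 0.45, adjusted p = 0.00394), and the value in WT was 0.38 (adjusted p = 0.684). The strain difference at 35°C was 1.63 ± 0.42 and failed the correction (unadjusted p = 0.00612, adjusted p = 0.995). mir-51 had the p under 0.05 at 20°C, with a strain difference of -1.63 ± 0.53 (unadjusted p = 0.0175, adjusted p = 0.423), miR-85(n4117) lying below WT in every library. Without miR-85(n4117) replicate 1 it was -2.53 (adjusted p = 0.13).

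The difference of the heat shock response between strains, tested as an interaction, passed for 0 of the 23 tested microRNA genes, as for 0% of 16585 genes in each direction (edgeR), and DESeq2 called 0 of the 56. At an unadjusted p under 0.05 there were 3 in each tool, where 2.27% of all genes tested in edgeR were under 0.05. In edgeR these were mir-80 (unadjusted p = 0.00519), mir-47 (2.12 ± 0.70 on the log2 scale, unadjusted p = 0.0117) and mir-250 (unadjusted p = 0.0498), and mir-80 and mir-250 had no count in miR-85(n4117) at 20°C, so that their fitted interactions rest on the prior count. The plot of both strains' responses shows the values side by side.

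**Figure D5:**
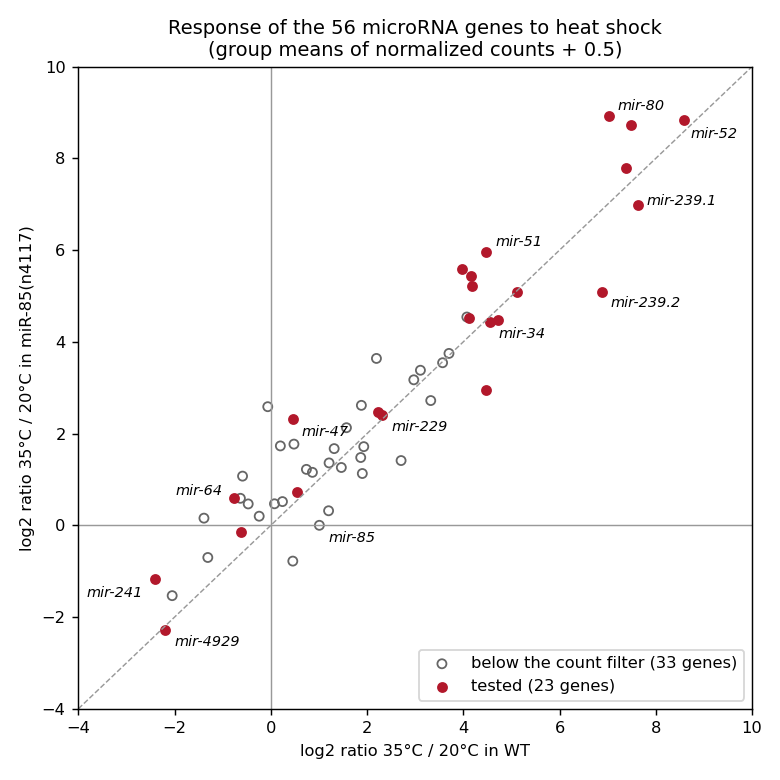
Log2 ratio of the mean normalized counts at 35°C and 20°C (each plus 0.5) in miR-85(n4117) (vertical axis) against WT (horizontal axis) for the 56 microRNA genes (filled, 23 tested; open, 33 below the count filter; dashed line, equal ratios). Most points lie in the upper right along the dashed line, mir-4929 and mir-241 lie in the lower left, and mir-47 lies above the line.

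The 33 genes that did not pass the count filter had sums of 20 to 83. All libraries at 35°C were above all at 20°C for 15 of them in miR-85(n4117) and for 13 in WT, with 12 in both strains, and the reverse held for 0 and 2. For all 56 genes the counts were 34 above and 2 below in miR-85(n4117), where 23.1% of the 19720 genes of any class with 20 or more counts were above and 15.5% below, and 30 above and 4 below in WT, where these shares were 23.1% and 16.1%. Across both strains, 27 of 56 had all 6 libraries at 35°C above all 6 at 20°C, where 12% of genes did, and 2 had them below, where 7.19% did. Between strains, miR-85(n4117) was above WT for 2 and below for 1 at 35°C, where 3.54% and 3.76% of genes were, and above for 1 and below for 3 at 20°C, where 7.94% and 7.54% were. The rule takes in genes with counts at either temperature, and 30 of the 56 reached 20 counts only in the libraries at 35°C, 2 only in those at 20°C, 12 in each temperature alone and 12 in neither alone.

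mir-1829.2 (chromosome X, in an intron of F20D1.3) rose with 25, 18 and 9 counts against 4, 3 and 5 in miR-85(n4117) (log2 fold change 2.61 ± 0.62, adjusted p = 0.0158), and 11, 11 and 6 against 1, 0 and 2 in WT (ratio 9.36, 2.89 to 48.1, adjusted p = 0.0246). The WT call was lost with the replicate block (adjusted p = 0.0732), and when WT replicate 1 or 2 of either temperature was left out (adjusted p up to 0.0928). The miR-85(n4117) call was lost without replicate 1 or 2 at 20°C or replicate 1 at 35°C (adjusted p up to 0.0665). mir-1829.3 is a copy of similar name, and counts of such copies can be split or lost where reads match both. It lies just inside the minimum with 22 counts, as do mir-4815 with 22 and mir-355 with 20. The genes just outside were mir-253 with 18, mir-65 with 17 and mir-1830 with 17.

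The proteins that make and use miRNAs are encoded by 13 genes of the biogenesis and silencing list, all tested. Of these, 1 rose and 1 fell in miR-85(n4117), where 7.31% of all genes rose and 3.13% fell, and 1 rose and 2 fell in WT, where 8.73% rose and 5.02% fell. The list had median log2 fold changes of -0.03 and -0.10 in these strains, against 0.05 and 0.04 over all genes. The 3 that passed all encode Argonaute proteins. alg-2 fell in both strains, with 204, 254 and 143 counts against 954, 529 and 583 in miR-85(n4117) (-1.21 ± 0.20, adjusted p = 0.0025), and 193, 264 and 226 against 747, 716 and 256 in WT (-1.31 ± 0.20, adjusted p = 0.00145). alg-1, the main Argonaute of miRNAs, had 437, 313 and 383 counts against 1224, 804 and 773 in miR-85(n4117) (-0.73 ± 0.30, adjusted p = 0.129), and 601, 249 and 346 against 1862, 1315 and 562 in WT, where it fell (-1.64 ± 0.30, adjusted p = 0.00398). The interaction for alg-1 was 0.92 ± 0.42 (unadjusted p = 0.0528).

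alg-5, an Argonaute of the germline, rose in both strains. It had 1282, 2117 and 993 counts against 1583, 670 and 777 in miR-85(n4117) (1.13 ± 0.28, adjusted p = 0.0213), and 1228, 1548 and 1420 against 829, 1091 and 234 in WT (1.07 ± 0.28, adjusted p = 0.0213). Its call was lost in 3 of 12 fits that left out a library in each strain, with adjusted p up to 0.0926 and 0.0723. No gene of this list passed between the strains at either temperature.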

How the data were processed

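RNA from 12 samples of whole L4 animals was depleted of ribosomal RNA, made into stranded libraries and read in single 75-base reads. The authors aligned the reads with STAR to ce11 and deposited raw counts per gene, made with featureCounts 1.6.5 (strand setting 2) against Ensembl release 100 per the file headers. With default settings featureCounts drops reads that overlap features of more than 1 gene, which can lower counts of microRNA genes that overlap others. Gene classes, names and coordinates came from an Ensembl release 115 annotation of WBcel235, which held 46817 of the 46904 gene IDs (the other 87 have no class). Total counts were 23871531 to 38586076 per library.

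Counts were tested with edgeR 4.0.16 (R 4.3.3): filterByExpr, TMM normalization and a robust quasi-likelihood fit, with Benjamini-Hochberg adjustment over all genes tested. Heat shock and its interaction with strain were fitted on 12 libraries, and strain on the 6 libraries of a temperature. A standard error is the size of the log2 fold change over the root of its F statistic. Single genes too rare for the fit were compared by exact permutation. DESeq2 1.42.0, other normalization, filters and libraries, lane, the replicate block and leaving out each library were alternatives. The fits were tested on simulated data with 200 changed genes.

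The microRNA genes and gene lists were chosen with earlier results of these data known. Named were mir-85, mir-71, mir-246 and let-7, the genes that passed (the 15 with the largest change where more passed in a comparison), the 10 highest per kb, the heterochronic genes, the neighbours of these, and 3 genes on each side of the count minimum. Others that are named were chosen after their values were seen. Levels are compared between genes only per kb.

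Replicate numbers come from the labels. Same-numbered libraries deviated together between the strains at 35°C (correlations of 0.49, 0.56 and 0.34 over 16585 genes) and between temperatures in WT (0.31, 0.12 and 0.36), and these pairs count as paired. The tests have no block, and the blocked value is given beside a result of a paired comparison where it changes the call. The p-values measure the spread between the replicates.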

Additional observations from a re-analysis of the deposited data

How the results depend on the processing

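Counts at 20°C limit these results: 33 of 56 genes did not pass the count filter of the edgeR test, and at 20°C alone 14 genes reach the minimum of 20 counts. With a minimum of 50 the number of genes was 29. With at least 10 counts in every library only 1 microRNA gene was tested and 0 passed upon heat shock in either strain, because the filter removes genes absent at 20°C. Of the genes called upon heat shock, 19 in each strain, leaving out 1 library gave 19 to 22 in miR-85(n4117) and 18 to 22 in WT, DESeq2 26 and 23, edgeR with no filter 26 and 23, the 6 libraries of a strain alone 13 and 13, and RLE or lane 19 and 19. DESeq2 and no filter, which took in all 56 genes, added mir-45, mir-55, mir-228 and mir-8188 in both strains, and mir-246, mir-355 and mir-8210 in miR-85(n4117). The replicate block gave 16 in WT. In miR-85(n4117), where the replicate numbers do not pair the libraries (correlations of -0.20, -0.34 and 0.41 between temperatures), it gave 15 and lost mir-1829.2, mir-56, mir-58.1 and mir-75. The strains at 20°C were not paired either (0.10, -0.19 and 0.04). Strain and interaction counts were 0 under every alternative run. Over genes of all classes, heat shock called 1732 in miR-85(n4117), against 2659 with DESeq2 and 734 with 10 counts in every library, and 2281 in WT, against 1214 with that filter. The strain calls were 3 at 35°C, against 12 with DESeq2, 8 with no filter and 6 in the 12-library fit, and 8 at 20°C, against 153, 71 and 13, with 2 with the block or lane. Leaving out libraries turned the sign of values that never passed: E01G4.3 (-0.43 to 0.087), gcn-1 (-0.19 to 0.065) and mir-353 (-0.43 to 0.030) in miR-85(n4117), and gcn-1 (-0.25 to 0.16) and mir-353 (-0.95 to 0.13) in WT. Leaving out 1 library also moved the fitted fold of called genes by over 1.5 times without ending the call, through WT replicate 1 at 20°C for mir-61 (8.35) and through replicates 1 and 3 for mir-239.1 (7.80 and 9.10) and replicate 2 for mir-239.2 (7.64) in WT, and through replicate 1 at 20°C for mir-56 (3.01) and T21B4.20 (3.21) in miR-85(n4117). The cause was not tested.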

Other observations

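Below the minimum, 139 of the 205 other microRNA genes had 1 to 19 counts and 66 had none. Of the 139, 101 had a higher normalized sum at 35°C and 38 a lower one. The share among genes of other classes with as few counts was not computed, so nothing is read from these numbers. Among the 56 genes, 46 had a higher sum at 35°C, where 57.1% of the 19720 genes of any class with 20 or more counts did, and the median log2 ratio was 1.73, against 0.10 over those genes (pseudocount 0.5).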
